A study of Mus musculus with 6 samples.

Results

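Glycolysis and the response to low oxygen were described in dendritic cells sorted from ID8 tumours through 34 genes: glycolytic enzymes, glucose and lactate transporters, regulators of glycolytic flux, and HIF1 with its oxygen sensors and targets. The genes were chosen by symbol, with earlier results of these data known. All 34 had a row among the 23225 genes of the deposited count table, and all 34 passed the filter on low counts. The XBP1-KO group (3 libraries) came from mice whose CD11c-positive cells lack XBP1, so cells without CD11c keep the gene. The wild-type group (WT, 3 libraries) carries the intact gene. All 6 libraries are from C57BL/6 mice at day 23 of ID8, a line of mouse ovarian cancer cells, with ascites as the labelled source, and all hold total RNA of sorted tumour-associated dendritic cells. The labels state that RNA was isolated separately for each sample but name no animals, so the p-values reflect only how far these samples scatter, and that scatter may be technical.

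Glycolysis splits glucose into pyruvate in the cytosol, and lactate dehydrogenase turns pyruvate into lactate, which leaves through monocarboxylate transporters. In myeloid cells the pathway is known to run faster on activation and in low oxygen. HIF1 is the transcription factor behind much of that response: prolyl hydroxylases use oxygen to mark its alpha subunit for degradation, and in low oxygen the subunit persists and drives glycolytic genes together with genes of angiogenesis, mitophagy and collagen hydroxylation. HIF1 binds the core words ACGTG and GCGTG in DNA.

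The libraries held between 26946349 and 32709100 counts. Within a genotype they are called a, b and c by column position, and these letters pair nothing. Xbp1, the targeted gene, had 32.5, 30.9 and 40.4 CPM (TMM-normalised counts on the CPM scale) in the XBP1-KO libraries, against 67.2, 48.7 and 76.8 CPM in the WT libraries. The log2 fold change of Xbp1 was -0.89 (SE 0.18, edgeR adjusted p 0.0545), so the targeted gene itself did not pass the threshold of 0.05. The markers of dendritic cells, led by Cd74 and H2-Eb1, were present in every library, with summed levels of 65483 to 94037 CPM in XBP1-KO and 71229 to 115223 CPM in WT over 16 genes. Markers of macrophages and monocytes, led by Lyz2 and C1qb, summed to 20666 to 24654 CPM in XBP1-KO and 17688 to 29288 CPM in WT over 16 genes. Of these 16 genes 7 lay lower and 9 higher. Mrc1 alone passed, in the lower direction (edgeR adjusted p 0.0455), as did 0.288% of all tested genes. T and NK cell markers, led by Klrb1c and Cd2, summed to 278 to 419 CPM in XBP1-KO and 170 to 186 CPM in WT over 15 genes, of which 14 lay higher and 5 rose. B cell markers, led by Cd79b and Ms4a1, summed to 357 to 515 CPM in XBP1-KO and 142 to 329 CPM in WT, and neutrophil markers, led by Retnlg and S100a8, to 356 to 609 CPM in XBP1-KO and 130 to 353 CPM in WT. All 8 B cell markers and all 11 neutrophil markers tested lay higher, and none of them rose. Among all 15958 tested genes 8959 lay higher and 25 rose at an adjusted p under 0.05 in edgeR (0.157%). Mast cell and eosinophil markers (Kit and Cma1), markers of ID8 and mesothelial cells (Krt19 and Krt18), fibroblast and endothelial markers (Dcn and Pecam1), cell division genes (Tyms and Rrm2) and immediate early genes (Fos and Egr1) had sums that overlapped between the genotypes. Of 8 tested mast cell and eosinophil markers 7 lay higher and 3 rose, Cma1, Cpa3 and Tpsb2, while Kit, the one with the most counts, lay lower. No marker with a row was at 0 in all 6 libraries. In bulk RNA, fewer cells of a type and less RNA per cell cannot be told apart. All libraries of a genotype differed from each other beyond counting noise (chi-square per degree of freedom at least 22.5).

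Of the 34 genes, 26 lay lower in XBP1-KO and 8 lay higher, and none passed the threshold, an adjusted p under 0.05 in edgeR's quasi-likelihood test over 15958 genes. Among all tested genes 0.445% passed, 46 of them lower (0.288%) and 25 higher (0.157%), and with library size alone as the scaling 12 were lower and 13 higher. Because the 34 genes were chosen with earlier results of these data known, their shares beside those of all tested genes are a description and no test. Levels below those of WT were found for 76.5% of the 34 genes and for 43.9% of all tested genes. The median log2 fold change was -0.26 for the 34 genes and 0.06 for all tested genes. Most dendritic cell markers lay to the same side, with 13 of 16 lower (81.2%), a median of -0.24 and none passing. Of these 16, 1 lay lower at an unadjusted edgeR p under 0.05, Ciita (log2 fold change -0.47), and 1 higher, Itgax (0.5). The part of dendritic cell content in the levels of the 34 genes was not tested. At an unadjusted p under 0.05, 10 of the 34 lay lower (29.4%, against 8.26% of all tested genes) and 0 lay higher (4.59% of all tested genes). Every XBP1-KO library lay below every WT library for 11 of the 34 genes (32.4%, against 10.4% of all tested genes), and every XBP1-KO library lay above every WT library for 1, Vegfa (8.8% of all tested genes). With library size alone as the scaling, 4 of the 34 were without overlap in the lower direction (Hk1, Pfkp, Aldoc and Eno2), against 6.25% of all tested genes, and Pfkl, Tpi1, Pgk1, Pkm2, Pfkfb3, Pfkfb4 and P4ha1 then overlapped. Without XBP1-KO b and WT b, 19 of 32 tested members were, against 22.9% of all tested genes. DESeq2 called 2 of the 34, Hk1 and Pfkp, and 2.9% of all tested genes, and limma-voom called 0 of the 34 and 0.295% of all tested genes.

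**Figure D1:**
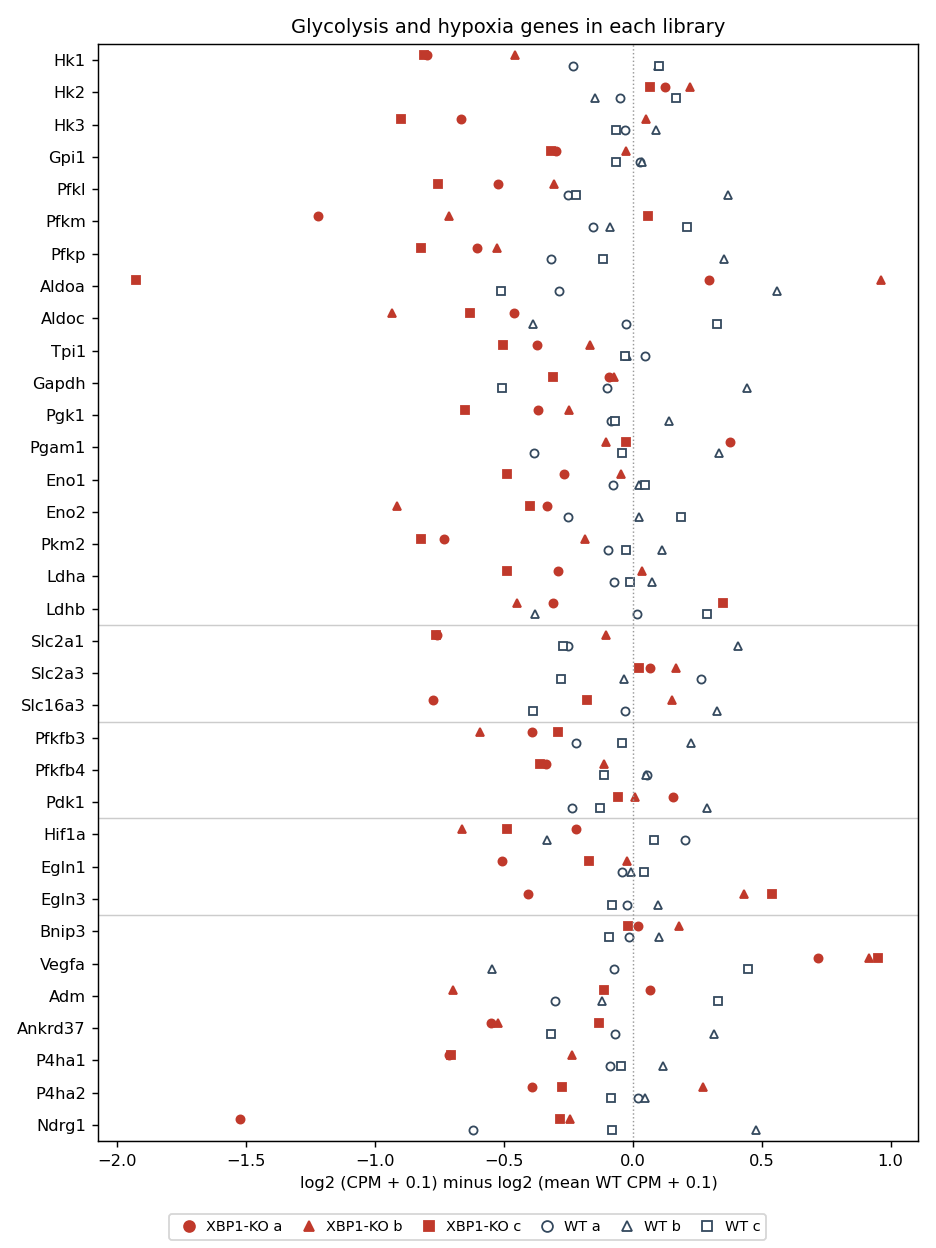
Level of each of the 34 genes in each library, as log2 (CPM + 0.1) relative to the WT mean, with filled red marks for XBP1-KO and open dark marks for WT; shapes give libraries a, b and c, and lines divide enzymes, transporters, flux regulators, HIF1 with its hydroxylases, and other targets. For 11 genes every XBP1-KO mark lies left of every WT mark, and XBP1-KO b is the highest XBP1-KO library for 22.

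**Figure D2:**
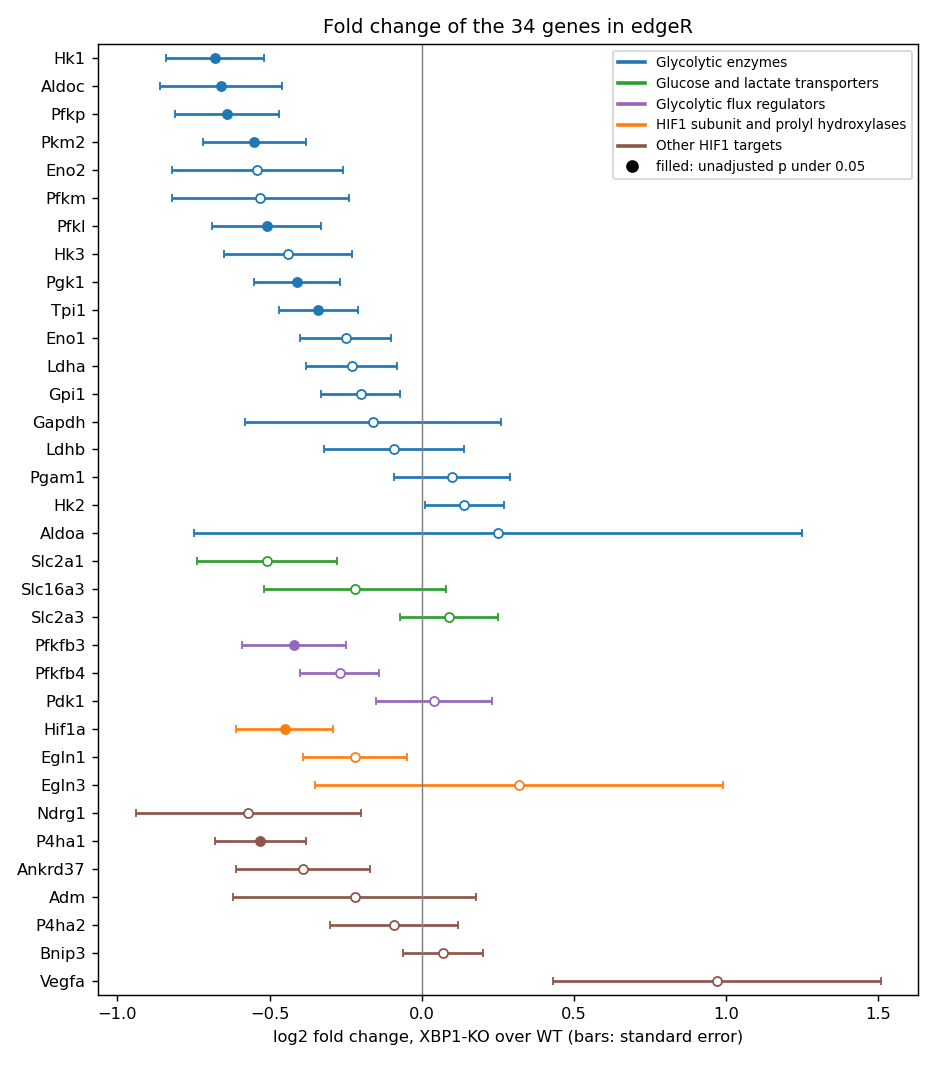
Log2 fold change of XBP1-KO over WT with its standard error for the 34 genes in edgeR, coloured by role; filled points have an unadjusted p under 0.05. All 10 filled points lie below 0, and none of the 34 genes passed after adjustment over all tested genes.

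Promoter windows of 6 members are given, with the words that HIF1 binds marked. The genes are Hk1, Pfkp, P4ha1, Aldoc and Pkm2, the 5 members with the smallest p, and Bnip3, a HIF1 target whose genotypes overlapped. The windows run from 250 bases before to 50 bases after a RefSeq transcription start in GRCm38.p6, a build other than the mm9 of the submitters' processing notes, and are written 5′ to 3′ on the gene's strand. Capitals mark ACGTG and GCGTG on either strand (CACGT and CACGC on the opposite one). Hk1, Aldoc and Pkm2 have 2 windows each, and the one with the most matches is printed.
Hk1: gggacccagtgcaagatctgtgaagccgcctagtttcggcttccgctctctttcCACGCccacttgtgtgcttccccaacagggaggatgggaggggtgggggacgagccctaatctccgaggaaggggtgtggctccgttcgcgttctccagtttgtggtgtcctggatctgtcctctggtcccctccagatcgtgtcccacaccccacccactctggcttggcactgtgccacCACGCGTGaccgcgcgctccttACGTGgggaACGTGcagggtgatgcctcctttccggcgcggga
Pfkp: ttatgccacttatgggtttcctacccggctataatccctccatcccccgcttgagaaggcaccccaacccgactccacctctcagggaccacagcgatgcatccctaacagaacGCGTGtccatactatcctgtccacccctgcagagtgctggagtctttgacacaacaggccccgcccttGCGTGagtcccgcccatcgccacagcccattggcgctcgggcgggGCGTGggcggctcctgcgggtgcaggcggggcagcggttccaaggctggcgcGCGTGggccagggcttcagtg
P4ha1: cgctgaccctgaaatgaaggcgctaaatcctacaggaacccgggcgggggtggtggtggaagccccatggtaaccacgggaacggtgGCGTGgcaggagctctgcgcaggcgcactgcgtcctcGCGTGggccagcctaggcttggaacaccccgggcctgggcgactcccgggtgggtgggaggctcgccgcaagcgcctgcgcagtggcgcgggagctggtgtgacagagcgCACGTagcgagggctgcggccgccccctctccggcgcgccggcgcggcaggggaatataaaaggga
Aldoc: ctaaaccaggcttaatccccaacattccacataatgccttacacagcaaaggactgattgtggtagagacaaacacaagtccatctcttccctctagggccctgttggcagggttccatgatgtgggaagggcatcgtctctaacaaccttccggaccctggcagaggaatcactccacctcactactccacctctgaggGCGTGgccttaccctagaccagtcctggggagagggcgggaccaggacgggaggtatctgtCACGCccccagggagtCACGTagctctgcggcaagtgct
Pkm2: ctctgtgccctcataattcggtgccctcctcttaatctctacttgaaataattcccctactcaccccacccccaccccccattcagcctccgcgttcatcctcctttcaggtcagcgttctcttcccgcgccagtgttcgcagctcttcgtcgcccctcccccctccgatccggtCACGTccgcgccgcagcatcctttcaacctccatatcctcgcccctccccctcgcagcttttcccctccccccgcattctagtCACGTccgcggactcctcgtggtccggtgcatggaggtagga
Bnip3: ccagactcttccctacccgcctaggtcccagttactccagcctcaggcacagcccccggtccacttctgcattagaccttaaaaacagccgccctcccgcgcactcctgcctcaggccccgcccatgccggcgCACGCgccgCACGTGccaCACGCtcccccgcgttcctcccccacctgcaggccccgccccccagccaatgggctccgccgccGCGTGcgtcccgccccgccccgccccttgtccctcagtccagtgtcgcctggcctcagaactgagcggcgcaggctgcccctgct
The Hk1 window lies at chr10:62340372-62340671 on the minus strand, the Pfkp window at chr13:6648722-6649021 on the minus strand and the P4ha1 window at chr10:59323046-59323345 on the plus strand. That of Aldoc lies at chr11:78322823-78323122 on the plus strand, that of Pkm2 (Pkm in RefSeq) at chr9:59656977-59657276 on the plus strand and that of Bnip3 at chr7:138909457-138909756 on the minus strand. Windows were found for 32 members and not for Slc2a3 and Ndrg1. At least 1 window held ACGTG or GCGTG in 29 of the 32 genes (90.6%), against 46.7% of the 27025 genes with a window, and 37 of the 46 member windows did so (80.4%), against 43.8% of 32851 windows. Taken alone, ACGTG was in 54.3% of member windows against 19.6% of all, and GCGTG in 56.5% against 32.4%. CACGTG, which holds ACGTG on both strands and counts as a pair of matches, was in 10.9% of member windows against 7.15% of all, and TGACGTG, which also holds ACGTG and resembles the element that XBP1 binds, in 8.7% against 2.01%. The members include genes known as HIF1 targets, the base composition of the windows was not matched, and Bnip3 held 5 such words with genotypes that overlapped.

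Hexokinases phosphorylate glucose and so commit it to the cell, and none of the 3 isozymes passed. Hk1 had 24.6, 31.2 and 24.4 CPM in the XBP1-KO libraries, against 36.5, 45.8 and 46 CPM in the WT libraries. The genotypes did not overlap, and the log2 fold change was -0.68 (SE 0.16, edgeR adjusted p 0.089). Hk1 had the smallest p of the 34 genes and stood at rank 195 of all tested genes. It passed with DESeq2 (adjusted p 0.0148), with no filter on low counts (0.0363), without XBP1-KO b (0.046) and with a term for XBP1-KO b and WT b (0.0278), and the adjusted p was up to 0.371 in the other alternatives. Hk2, the form induced in activated cells, had 101, 108 and 97 CPM in XBP1-KO and 89.6, 83.8 and 104 CPM in WT, with overlap. Hk3, the form of myeloid cells, had 51.6, 84.9 and 43.8 CPM in XBP1-KO and 80.1, 87.1 and 78.3 CPM in WT. Libraries XBP1-KO a and c lay below all WT libraries for Hk3 and XBP1-KO b lay among them. The log2 fold change of Hk3 was -0.44 (SE 0.21, edgeR adjusted p 0.42). It was -0.79 without XBP1-KO b (edgeR adjusted p 0.0357), -0.35 without XBP1-KO a (0.701) and -0.28 without XBP1-KO c (0.643).

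Phosphofructokinase, the enzyme of the main control step, is built from the subunits Pfkl, Pfkm and Pfkp. Pfkp had 164, 173 and 141 CPM in XBP1-KO, against 200, 318 and 230 CPM in WT. Its log2 fold change was -0.64 (SE 0.17, edgeR adjusted p 0.11), and the adjusted p in DESeq2 was 0.0219. Pfkl had 71.1, 82.6 and 60.5 CPM in XBP1-KO, against 85.7, 132 and 87.5 CPM in WT, with a log2 fold change of -0.51 (SE 0.18) and an adjusted p of 0.254 in edgeR. Neither gene overlapped between the genotypes, and WT b was the highest library for both. Without WT b the log2 fold change of Pfkl was -0.31. Pfkm had 8.22 ± 3.76 CPM in XBP1-KO and 11.9 ± 1.66 CPM in WT (SD, n = 3 each), and the genotypes overlapped.

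In the middle of the pathway, where sugar phosphates are split and energy is first recovered, Aldoc, Tpi1 and Pgk1 had no overlap between the genotypes. Aldoc, an aldolase, had 29.7, 21.4 and 26.4 CPM in XBP1-KO, against 40.2, 31.3 and 51.3 CPM in WT. The log2 fold change was -0.66 (SE 0.2, edgeR adjusted p 0.157). Tpi1, triosephosphate isomerase, had 202, 233 and 184 CPM in XBP1-KO, against 270, 257 and 256 CPM in WT, a log2 fold change of -0.34 (SE 0.13, edgeR adjusted p 0.272). Its WT libraries lay within a narrow range and all XBP1-KO libraries lay under it. Pgk1, phosphoglycerate kinase, had 320, 348 and 263 CPM in XBP1-KO, against 390, 456 and 394 CPM in WT, a log2 fold change of -0.41 (SE 0.14, edgeR adjusted p 0.213). Gpi1, the isomerase between the hexokinase and phosphofructokinase steps, had 600 ± 69.3 CPM in XBP1-KO and 692 ± 26.9 CPM in WT (SD, n = 3 each), and Pgam1, the mutase after Pgk1, 115 ± 21.6 CPM in XBP1-KO and 107 ± 26.7 CPM in WT. Both overlapped between the genotypes.

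At the end of the pathway the enolase Eno1 had 2350, 2742 and 2016 CPM in XBP1-KO, against 2681, 2876 and 2923 CPM in WT. XBP1-KO b lay above WT a, so the genotypes overlapped, and the log2 fold change was -0.25 (SE 0.15, edgeR adjusted p 0.493), and -0.39 without XBP1-KO b. Pkm2, the pyruvate kinase gene, had 1085, 1583 and 1020 CPM in XBP1-KO, against 1685, 1949 and 1766 CPM in WT. All XBP1-KO libraries lay below all WT libraries, with XBP1-KO b close to WT a. The log2 fold change of Pkm2 was -0.55 (SE 0.17, edgeR adjusted p 0.174), and it passed without XBP1-KO b (-0.79, adjusted p 0.0357), in the 4 libraries other than b (0.0262) and with a term for libraries b (0.0253). Ldha, the lactate-forming subunit of lactate dehydrogenase, had 873 ± 163 CPM in XBP1-KO and 1024 ± 52.7 CPM in WT, and Ldhb, its partner, 215 ± 67.2 CPM in XBP1-KO and 229 ± 52.2 CPM in WT (SD, n = 3 each). Both overlapped. The log2 fold change of Ldhb was -0.09, and 0.01 with library size alone. It was 0.05 without XBP1-KO b, 0.08 without WT c and -0.4 without XBP1-KO c. Eno2, the enolase named for neurons, had 3.57 ± 0.761 CPM in XBP1-KO and 5.18 ± 0.788 CPM in WT, without overlap, with an adjusted p of 0.458 in edgeR.

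Over the 18 enzymes, 15 lay lower in XBP1-KO, 7 of them at an unadjusted p under 0.05, 8 had no overlap in that direction, and none passed. These are 83.3%, 38.9% and 44.4% of the enzymes, against 43.9%, 8.26% and 10.4% of all tested genes. The median log2 fold change was -0.38. Summed over the enzymes the level was 6137, 7416 and 5577 CPM in XBP1-KO, against 7568, 8355 and 8020 CPM in WT. With this TMM scaling the sum in every XBP1-KO library lay below that in every WT library. As a share of unscaled counts, all 34 genes together held 0.832% in XBP1-KO b, above 0.784% in WT a and 0.789% in WT c. XBP1-KO b, the nearest to WT, had the highest sum of T and NK cell markers (419 CPM). The part of T and NK cell RNA in the summed level of these enzymes was not tested.

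Gapdh and Aldoa, enzymes of the same pathway, had few counts and carry little information here. Gapdh had 40, 44 and 41 counts in XBP1-KO, against 41, 61 and 32 counts in WT. In GENCODE M21, 71 other genes, 69 of them pseudogenes, match the Gapdh transcript at 95% identity or more over at least 50% of its length. The part of these copies in its low count was not tested. Aldoa had 10, 19 and 0 counts in XBP1-KO, against 6, 13 and 5 counts in WT, and no other gene matched it at that limit. Near copies were also found for genes of high counts, Pgk1 (2), Eno1 (4), Pkm2 (1), Ldha (2) and Ldhb (1), and none of these copies had a row in the table.

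Glucose enters through facilitative transporters of the Slc2a family. Slc2a1 (GLUT1) had 22.5, 35.5 and 22.4 CPM in XBP1-KO, against 32, 50.6 and 31.6 CPM in WT. Its level was highest in library b of both genotypes, and the values overlapped only through XBP1-KO b. The log2 fold change was -0.51 (SE 0.23, edgeR adjusted p 0.396), with -0.77 without XBP1-KO b and -0.28 without WT b. Slc2a3 (GLUT3) had 35.8, 38.4 and 34.8 CPM in XBP1-KO and 41.1, 33.4 and 28.2 CPM in WT, with a log2 fold change of 0.09 (SE 0.16) that turned to -0.04 without WT c. Slc16a3, the lactate exporter MCT4, had 5.05 ± 1.58 CPM in XBP1-KO and 5.88 ± 1.46 CPM in WT (SD, n = 3 each). None of the 3 transporters passed.

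The regulators of flux are the bifunctional enzymes Pfkfb3 and Pfkfb4, which set the level of the activator of phosphofructokinase, and Pdk1, which keeps pyruvate from the mitochondrial oxidation step. Pfkfb3 had 21.4, 18.6 and 23 CPM in XBP1-KO, against 24.1, 32.9 and 27.3 CPM in WT, without overlap. Its log2 fold change was -0.42 (SE 0.17, edgeR adjusted p 0.317), and -0.23 without XBP1-KO b and WT b. Pfkfb4 had 54, 63.1 and 53.1 CPM in XBP1-KO, against 70.8, 70.7 and 63.1 CPM in WT, with XBP1-KO b and WT c equal to the precision shown. Its log2 fold change was -0.27 (SE 0.13, edgeR adjusted p 0.435). Pdk1 had 18.5 ± 1.42 CPM in XBP1-KO and 18 ± 3.59 CPM in WT (SD, n = 3 each), with overlap.

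Hif1a, the oxygen-regulated subunit of HIF1, had 147, 108 and 122 CPM in XBP1-KO, against 197, 136 and 181 CPM in WT. The only XBP1-KO library above a WT library was XBP1-KO a, which lay above WT b. The log2 fold change was -0.45 (SE 0.16, edgeR adjusted p 0.25), and the adjusted p ran from 0.0621 to 0.596 over the alternatives. Within each genotype Hif1a was lowest in library b. Egln1, the main prolyl hydroxylase, had 17.7, 24.8 and 22.4 CPM in XBP1-KO and 24.5, 25.1 and 26 CPM in WT, overlapping through XBP1-KO b. Egln3, a hydroxylase that is itself induced by HIF1, was near the lower limit with 6, 14 and 17 counts in XBP1-KO and 9, 10 and 9 counts in WT. HIF1 is controlled mostly at the protein level, which these libraries do not measure.

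Among the other HIF1 targets, the collagen prolyl hydroxylase subunit P4ha1 and the mitophagy receptor Bnip3 gave different pictures. P4ha1 had 59.6, 82.9 and 60 CPM in XBP1-KO, against 92, 106 and 94.7 CPM in WT, without overlap. Its log2 fold change was -0.53 (SE 0.15, edgeR adjusted p 0.144), and it passed without XBP1-KO b (-0.72, adjusted p 0.0389) and with a term for libraries b (0.0278). Bnip3 had 94.1, 105 and 91.6 CPM in XBP1-KO and 91.7, 99.5 and 86.9 CPM in WT, a log2 fold change of 0.07 (SE 0.13), with overlapping genotypes and the highest value of each genotype in library b. Its sign turned to -0.01 without XBP1-KO b. Ndrg1, a protein of stress and differentiation, had 4.43, 10.9 and 10.6 CPM in XBP1-KO and 8.37, 18 and 12.2 CPM in WT. XBP1-KO a was the lowest library, the genotypes overlapped, and the log2 fold change was -0.57 (SE 0.37, edgeR adjusted p 0.558). It was -0.26 without XBP1-KO a and -0.28 without WT b.

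Vegfa, the angiogenic growth factor, was low, with 27, 34 and 39 counts in XBP1-KO, against 15, 10 and 24 counts in WT. All XBP1-KO libraries lay above all WT libraries, and the log2 fold change was 0.97 (SE 0.54, edgeR adjusted p 0.479). Ankrd37, an ankyrin repeat protein, had 11.5 ± 1.96 CPM in XBP1-KO and 15.1 ± 3.4 CPM in WT, P4ha2, the sister subunit of P4ha1, 13.4 ± 3.45 CPM in XBP1-KO and 14.3 ± 0.672 CPM in WT, and the peptide hormone gene Adm 1.55 ± 0.424 CPM in XBP1-KO and 1.81 ± 0.445 CPM in WT (SD, n = 3 each). Of the 7 targets 5 lay lower (71.4%, against 43.9% of all tested genes), 1 had no overlap in that direction (14.3%, against 10.4%), and none passed. Their summed level was 182, 229 and 191 CPM in XBP1-KO and 223, 259 and 222 CPM in WT, with XBP1-KO b above WT a and c.

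Ratios between isozymes were compared within each library, where depth and scaling cancel. They are ratios of counts and not of molecules, since the transcripts differ in length. Of 11 pairs, chosen after the values were known, 2 had no overlap between the genotypes. The ratio of Hk2 to Hk1 was 4.13, 3.47 and 3.98 in XBP1-KO, against 2.45, 1.83 and 2.27 in WT, higher in 3 of 3 XBP1-KO libraries than in any WT library. The ratio of P4ha2 to P4ha1 was 0.184, 0.209 and 0.197 in XBP1-KO, against 0.158, 0.139 and 0.143 in WT, again higher in each XBP1-KO library. Both reached the smallest two-sided p that an exact permutation test of 3 against 3 allows, 0.1, and after adjustment over the 11 pairs the value was 0.44. The ratio of Slc2a3 to Slc2a1 was 1.59, 1.08 and 1.56 in XBP1-KO and 1.29, 0.659 and 0.89 in WT, with overlap, and that of Ldhb to Ldha 0.221, 0.16 and 0.4 in XBP1-KO and 0.238, 0.163 and 0.275 in WT. For phosphofructokinase the ratio of Pfkl to Pfkp was 0.447 ± 0.0269 in XBP1-KO and 0.409 ± 0.0251 in WT (SD, n = 3 each).

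**Figure D3:**
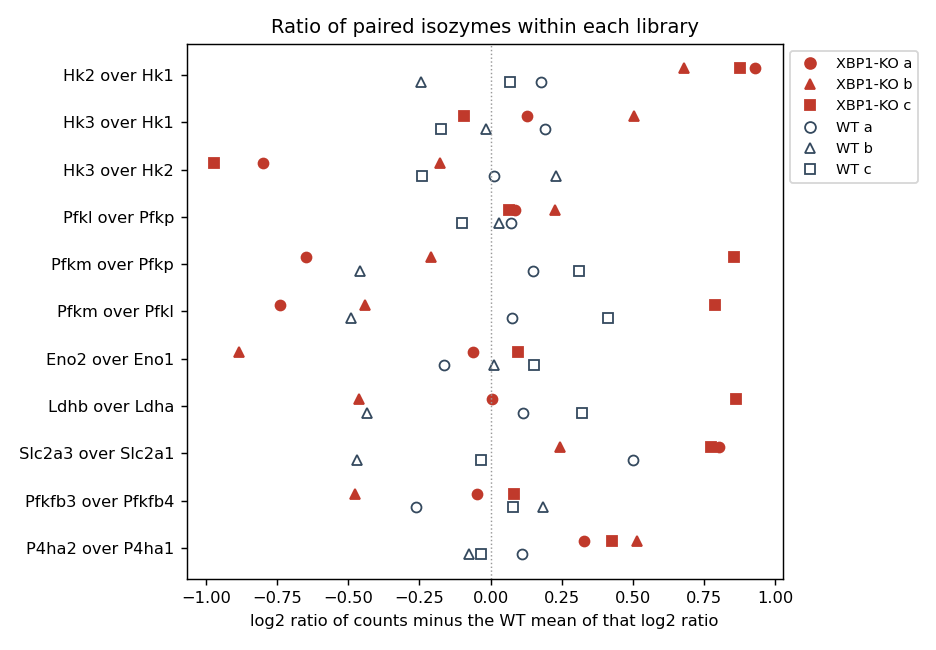
Log2 ratio of the counts of paired isozymes in each library, relative to the WT mean of the same log2 ratio, with filled red marks for XBP1-KO and open dark marks for WT. For Hk2 over Hk1 and P4ha2 over P4ha1 all XBP1-KO marks lie right of all WT marks, and the other 9 pairs overlap.

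Library b stood high within both genotypes for many of the 34 genes. XBP1-KO b was the highest XBP1-KO library for 22 of the 34 (64.7%, against 35% of all tested genes), and WT b the highest WT library for 20 (58.8%, against 40%). For 15 genes library b was highest in both genotypes (44.1%, against 18.9%), among them Pfkl, Pfkp, Pgk1, Pkm2, Ldha, Slc2a1, P4ha1 and Ndrg1. Relative to the mean of its genotype, the median deviation of the 34 genes was 0.17 in XBP1-KO b and 0.1 in WT b on the log2 scale, with 24 of 34 genes above that mean in each, while in the other 4 libraries it lay between -0.09 and -0.04. Aldoc, Ldhb and Hif1a went the other way and were lowest in library b of both genotypes.

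Other genes moved with library b as well. The summed level of red blood cell markers, led by Hba-a2 and Hbb-b1 of haemoglobin, was 146 CPM in XBP1-KO b and 137 CPM in WT b, and between 12.9 and 19.1 CPM in the other 4 libraries over 5 genes. Dendritic cell markers summed to less in b than in the other libraries of the same genotype, with 65483 CPM in XBP1-KO b and 71229 CPM in WT b. Most of that sum was Cd74, with 56672 CPM in XBP1-KO b and 59850 CPM in WT b. Single markers went both ways. Of the 16, 4 were lowest in b of both genotypes (Cd74, H2-Eb1, Cd209a and Irf4) and 4 were highest in b of both (Zbtb46, Irf8, Xcr1 and Clec9a). Along the second axis of a principal component analysis of the libraries, which held 22.7% of the variance, XBP1-KO b lay at 28.7 and WT b at 37.6, and the other libraries between -41.5 and -0.878. The labels name no batch. The part of red blood cell RNA, or of a different make-up of the sorted cells, in the levels of the glycolytic genes was not tested. A term that joins XBP1-KO b and WT b was chosen because these libraries were known to stand high in these genes, and no label gives it, so calls gained with it are not independent of that choice. With this term in the edgeR fit 6 of the 34 genes were lower with an adjusted p under 0.05 (Hk1, Pfkp, Pfkl, Aldoc, Pkm2 and P4ha1), against 2.67% of all tested genes in either direction.

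**Figure D4:**
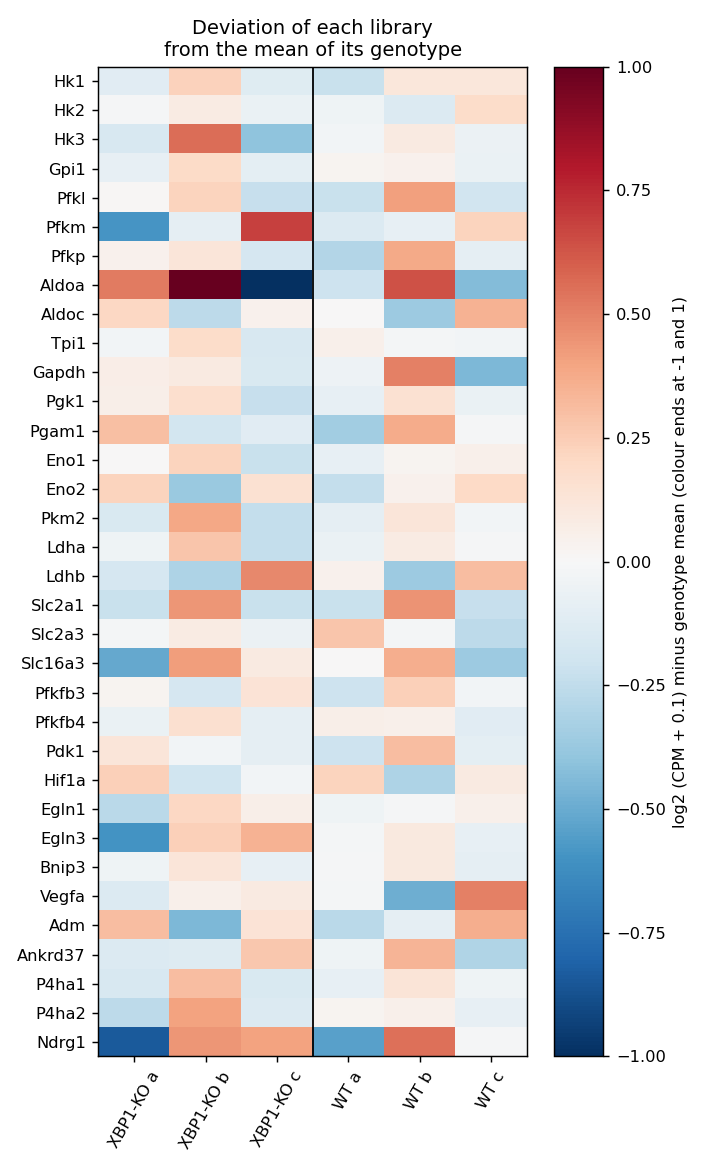
Deviation of log2 (CPM + 0.1) in each library from the mean of its genotype for the 34 genes, XBP1-KO left and WT right of the line, with red above and blue below the mean. Library b is above its mean for 24 of 34 genes in each genotype, and Aldoc, Ldhb and Hif1a are blue in both b columns.

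**Figure D5:**
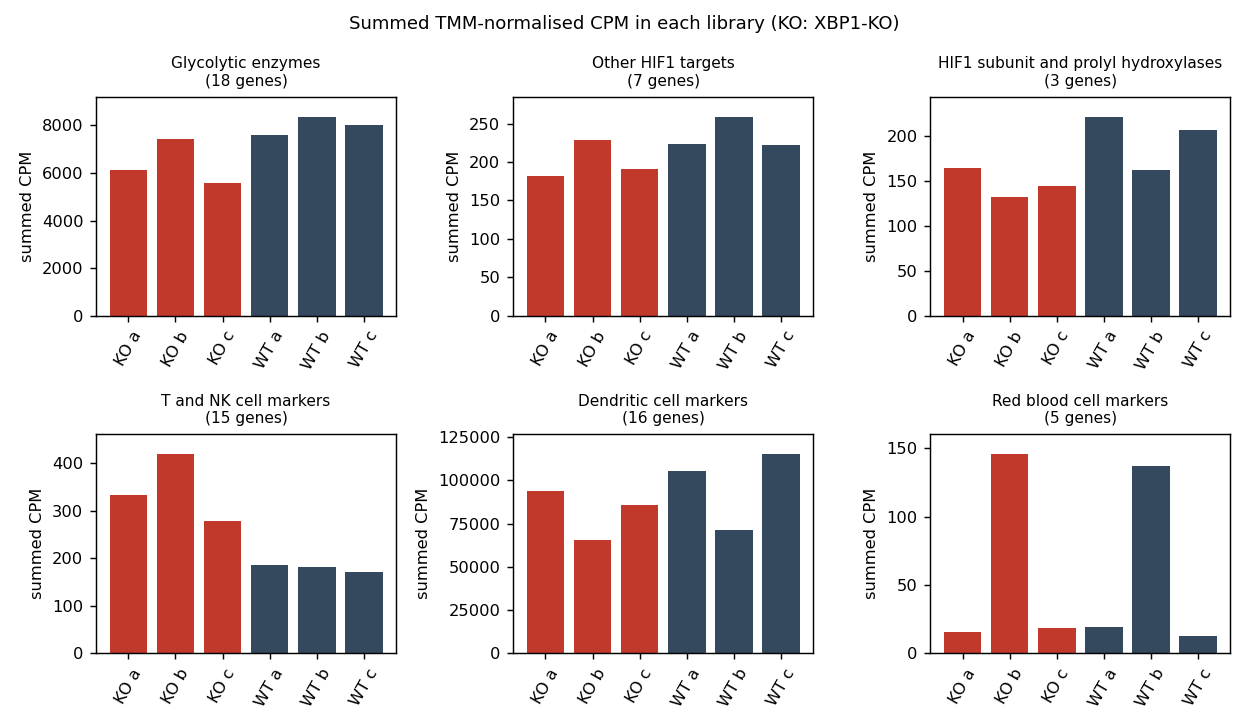
Summed CPM in each library for 3 groups of the members (upper row) and 3 lists of cell markers (lower row), XBP1-KO libraries in red and WT libraries in dark blue. With this TMM scaling every XBP1-KO library lies below every WT library for the enzymes. T and NK cell markers are higher in the XBP1-KO libraries, and red blood cell markers are high in library b of both genotypes.

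Genes around the pathway were read from 5 further lists, and none of their genes passed. In the order given here, 41.7%, 46.4%, 57.1%, 50% and 64.7% of the lists lay lower, against 43.9% of all tested genes. Of 12 other HIF subunits and oxygen-sensing genes, 5 lay lower, with a median log2 fold change of 0.11. Only Arnt lay lower without overlap (8.33%, against 10.4% of all tested genes). Another 3, Arnt2, Tceb1 and Tceb2, lay higher without overlap, against 8.8% of all tested genes. Arnt, the constant partner of HIF1 alpha, had 20.4, 21.7 and 19.2 CPM in XBP1-KO, against 26.8, 35.6 and 28.8 CPM in WT, with an adjusted p of 0.144 in edgeR. Of 28 other hypoxia-induced genes, 13 lay lower, with a median of 0.05, close to the 0.06 of all tested genes. Narf, a nuclear protein that binds prelamin A, had 50.2, 44.5 and 65.7 CPM in XBP1-KO, against 74.9, 80.9 and 80.4 CPM in WT, with an adjusted p of 0.131.

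Of 28 other glycolytic isozymes and genes of pyruvate metabolism, 16 lay lower, with a median log2 fold change of -0.11. Pdp2, a phosphatase that activates pyruvate dehydrogenase, had 58.7, 48.2 and 55.6 CPM in XBP1-KO, against 72.8, 72.1 and 69.1 CPM in WT, with an adjusted p of 0.212 in edgeR. In the pentose phosphate pathway, which branches off after hexokinase, 6 of 12 genes lay lower. Tkt, transketolase, which links that pathway back to glycolysis, had 125, 127 and 110 CPM in XBP1-KO, against 164, 188 and 193 CPM in WT. Its log2 fold change was -0.59 (SE 0.13, edgeR adjusted p 0.0624), and the adjusted p ran from 0.00668 to 0.324 over the alternatives. Of 17 genes of glycogen metabolism, 11 lay lower, with a median of -0.18. Pygb, a glycogen phosphorylase, had 48.6, 44.6 and 54.6 CPM in XBP1-KO, against 64.8, 86.5 and 73.9 CPM in WT, with an adjusted p of 0.0896.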

How the data were processed

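RNA was sequenced from 3 XBP1-KO and 3 WT samples. One deposited table gives raw whole-number counts per gene. The submitters' processing notes name RSEM, edgeR and the mouse build mm9 with no role stated, and no source used here says how estimates became whole counts or whether strand was used. The second deposited table holds CPM, each equal to the count over the library total within 5.1e-11, for the 13946 genes above a CPM of 1 in at least 2 libraries. Columns name only the genotype, and none was left out (0 unused).

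Counts were tested in R 4.3.3 with edgeR 4.0.16: filterByExpr, TMM, robust glmQLFit, a two-sided quasi-likelihood F test of genotype and Benjamini-Hochberg adjustment over 15958 genes, called under 0.05. SE is the log2 fold change over the square root of F. The test was run on simulated counts with known changes. They were drawn without an effect shared by libraries b, so that run does not bear on this pattern. CPM in the text is TMM-normalised with the SD over libraries; CPM is not per length, so an order of genes by CPM, as used to pick the examples of a list, is one of counts and not of molecules. Libraries held 26946349 to 32709100 counts, and the common biological coefficient of variation between them was 0.25. Alternatives were DESeq2 1.42.0, limma-voom (limma 3.58.1), other scalings and filters, limma on log2 of the deposited CPM plus 1 or 0.1, each library left out, both b libraries left out and a term for them, chosen with their level in these genes known.

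The members and lists were chosen with earlier results of these data known. Full values were given for members called or at an unadjusted p under 0.05 and for the highest and most changed member of each role, and for up to 3 called genes, or the one with the smallest p, of each pathway list. Pathway lists matched 108 of 110 memberships, 3 of them by RefSeq synonym, and marker lists 123 of 130. Sequences are from RefSeq GRCm38.p6 and near copies from GENCODE M21.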

Additional observations from a re-analysis of the deposited data

How the results depend on the processing

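No paired analysis was possible because the columns of the deposited tables carry no replicate number. The number of all tested genes called, 71, was 463 with DESeq2, 47 with limma-voom, 25 with library size alone, 252 with no filter on low counts, 25 and 13 with the deposited CPM at pseudocounts 1 and 0.1, 426 with a term for libraries b, and 5 to 154 with 1 library left out (13, 154 and 16 without XBP1-KO a, b and c, and 38, 40 and 5 without WT a, b and c). Of the 34 members, 0 were called; it was 2 with DESeq2, 2 with no filter on low counts, 1 in the 4 libraries other than b, 6 with a term for libraries b, and 0 to 4 with 1 library left out, the 4 (Hk1, Hk3, Pkm2 and P4ha1) without XBP1-KO b. In the 4 libraries other than b, 70 of all tested genes were called (0.44%). The cause of these differences was not tested. Members without overlap in the lower direction were 11 of 34, against 10.4% of all tested genes. With library size alone they were 4 of 34, against 6.25%. In the 4 libraries other than b they were 19 of 32, against 22.9%. Fewer libraries separate more easily, and XBP1-KO b stood high in many of these genes. The part of each in this difference was not tested. The number of members lower in XBP1-KO stayed between 25 and 28 over the alternatives and their median log2 fold change between -0.38 and -0.18. With 1 library left out, the log2 fold change of Bnip3 was between -0.01 (without XBP1-KO b) and 0.09 and that of Slc2a3 between -0.04 (without WT c) and 0.24. Of the refits of named genes, 344 kept direction and side of the threshold, 28 passed it newly and 2 were these sign changes. Genes of few counts (Aldoa, Gapdh, Egln3, Vegfa and Adm) had standard errors of 0.4 to 1, and the part of depth in these was not tested.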

Other observations

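Among hypoxia-induced genes outside the 34, 8 of 28 tested were highest in library b of both genotypes (28.6%, against 18.9% of all tested genes). Another 7 were lowest in b of both, Car9, Bhlhe40, Ddit4, Loxl2, Bnip3l, Cited2 and Insig2. The same held for 2736 of all 15958 tested genes. Of the 8 that were highest in b, 3 are given here, picked after their values were seen. Hmox1, heme oxygenase, which degrades the heme of haemoglobin, had 56.9, 247 and 80.6 CPM in XBP1-KO and 134, 180 and 58.3 CPM in WT, in the order a, b, c. Arg1, the arginase of alternatively activated myeloid cells, had 152, 400 and 111 CPM in XBP1-KO and 108, 200 and 71.1 CPM in WT. Tfrc, the transferrin receptor for iron uptake, had 20, 40.6 and 22.3 CPM in XBP1-KO and 25.5, 40.6 and 25.7 CPM in WT. None of the 3 passed between the genotypes in edgeR, with adjusted p-values of 0.983 for Hmox1, 0.682 for Arg1 and 0.86 for Tfrc.

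Bhlhe40, a hypoxia-induced repressor, had 493, 460 and 488 CPM in XBP1-KO, against 604, 594 and 600 CPM in WT, without overlap and with an adjusted p of 0.26 in edgeR. Phkb, the beta subunit of phosphorylase kinase, had 20.9, 28.2 and 24.4 CPM in XBP1-KO, against 35.8, 39.6 and 40 CPM in WT, with an adjusted p of 0.0896. Bhlhe40 and Phkb were named after their values were seen. Of the 28 tested hypoxia-induced genes outside the 34, 4 lay lower without overlap (14.3%, against 10.4% of all tested genes). Another 3, Car9, Cited2 and Cxcr4, lay higher without overlap, against 8.8% of all tested genes.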
